A study of Mus musculus with 2 samples.

Results

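The genes described here carry fatty acids into mitochondria and oxidise them there. They are 37 genes of the carnitine shuttle, mitochondrial β-oxidation, electron transfer from β-oxidation, mitochondrial thioesterases, short- and medium-chain acyl-CoA synthetases, ketone body enzymes and a pair of regulators, taken by symbol from a fixed list out of 52768 genes in each table. All 37 were found in the tables by their Ensembl identifiers.

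Long-chain fatty acids enter the mitochondrial matrix as carnitine esters, made at the outer membrane by carnitine palmitoyltransferase 1 and turned back into acyl-CoA at the inner membrane by carnitine palmitoyltransferase 2. In the matrix, acyl-CoA dehydrogenases, enoyl-CoA hydratases, 3-hydroxyacyl-CoA dehydrogenases and thiolases act in turn, each cycle shortening the chain and releasing acetyl-CoA. Electrons taken by the acyl-CoA dehydrogenases pass through the electron transfer flavoprotein to the respiratory chain. Brown adipose tissue is known for burning fatty acids by this route, and UCP1 lets the resulting proton gradient run down as heat.

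Interscapular brown adipose tissue (iBAT) was taken from C57BL/6 mice aged 8 weeks. BKO mice had the genotype METTL3flox/flox UCP1-iCre+/-, and flox/flox mice had the genotype METTL3flox/flox without the driver, so both groups carried the floxed alleles. Exons 2 and 3 of *Mettl3*, whose protein adds the methyl group of N6-methyladenosine to mRNA, lie between the loxP sites, and the *Ucp1* promoter confines iCre to cells that express *Ucp1*. According to the paper, iCre was inserted into the *Ucp1* gene itself, and both are expressed at lower levels. Only the BKO mice carried this altered *Ucp1* gene, and neither library came from iCre mice without floxed alleles. The effect of the insertion on *Ucp1* was not tested. RNA of 4 mice was pooled into 1 library per genotype, so the 2 libraries allow no replicate check and no p-value, and each difference below describes these 2 pools.

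*Mettl3* could not check the labels. It was at 2.38 FPKM (fragments scaled by exon length and library size) in the BKO-labelled library, from 253 fragments, and at 1.80 FPKM in the flox/flox library, from 165 fragments, and was 1.32-fold higher (1.08 to 1.62) in the BKO-labelled library. This direction is opposite to a loss of the gene, but a value for the whole gene in bulk tissue measures neither the floxed exons nor the *Ucp1*-expressing cells apart. For this reason the sample is named as the BKO-labelled library, and each direction below rests on that label. Values in parentheses after a fold are exact 95% intervals from the fragments behind the values; they reflect the number of fragments alone and leave out the spread between mice or preparations.

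The libraries held about 20707134 fragments in genes in the one labelled BKO and 19149778 in the flox/flox one, as worked back from the FPKM values. The brown adipocyte marker *Ucp1* was detected in both, at 537 FPKM in the BKO-labelled library and 3164 FPKM in the flox/flox library. Markers of other cells differed as well. The 14 skeletal muscle markers summed to 3661 FPKM in the BKO-labelled library and 61.2 FPKM in the flox/flox library, with *Tnnc2* listed at 0 in both and the other 13 all at least 2-fold higher in the BKO-labelled library. The 9 macrophage markers summed to 519 FPKM in the BKO-labelled library and 98.8 FPKM in the flox/flox library, all 9 being at least 2-fold higher in the BKO-labelled library. The 6 endothelial markers summed to 76.4 FPKM in the BKO-labelled library and 185 FPKM in the flox/flox library. Of the 4 hepatocyte markers, only *Cyp2e1*, which adipose tissue also expresses, passed the filter on low values, and *Alb*, *Apoa1* and *Ttr* were below 1 FPKM in both libraries. Muscle fibres, macrophages and endothelial cells also use fatty acid oxidation genes, and the part of these cells in the results below was not tested. In bulk tissue, fewer cells of a type and less RNA per cell cannot be told apart.

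Most of these genes had lower values in the BKO-labelled library than in the flox/flox library. Of the 37, 35 averaged 1 FPKM or more across the pair of libraries and were compared. Of these 35, 8 were at least 2-fold lower in the BKO-labelled library, against 721 of 12205 genes (5.91%) with the same mean, and none was at least 2-fold higher, against 1341 genes (11%). The log2 ratio, taken after adding 0.1 FPKM to both values, was below 0 for 28 of the 35, against 48.3% of all genes compared. Its median was −0.73 over the 35 genes and 0.02 over all genes. Among the 10652 protein-coding genes compared, 3.23% were at least 2-fold lower, 11.3% were at least 2-fold higher and 46.1% were below 0. With each library rescaled to TPM, the median of all genes moved up by 0.33 on the log2 scale. The split then became 1 member lower (*Echs1*), against 3.33% of all genes, and 1 higher (*Acsm5*). The share of all genes that were at least 2-fold higher in TPM was not taken. In TPM, 24 members and 24.9% of all genes were below 0. The distance between the medians of the members and of all genes was −0.75 under the deposited scaling and −0.75 in TPM. Rescaling to TPM multiplies each library by a single factor, so this distance was bound to stay nearly the same and is no check.

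**Figure D1:**
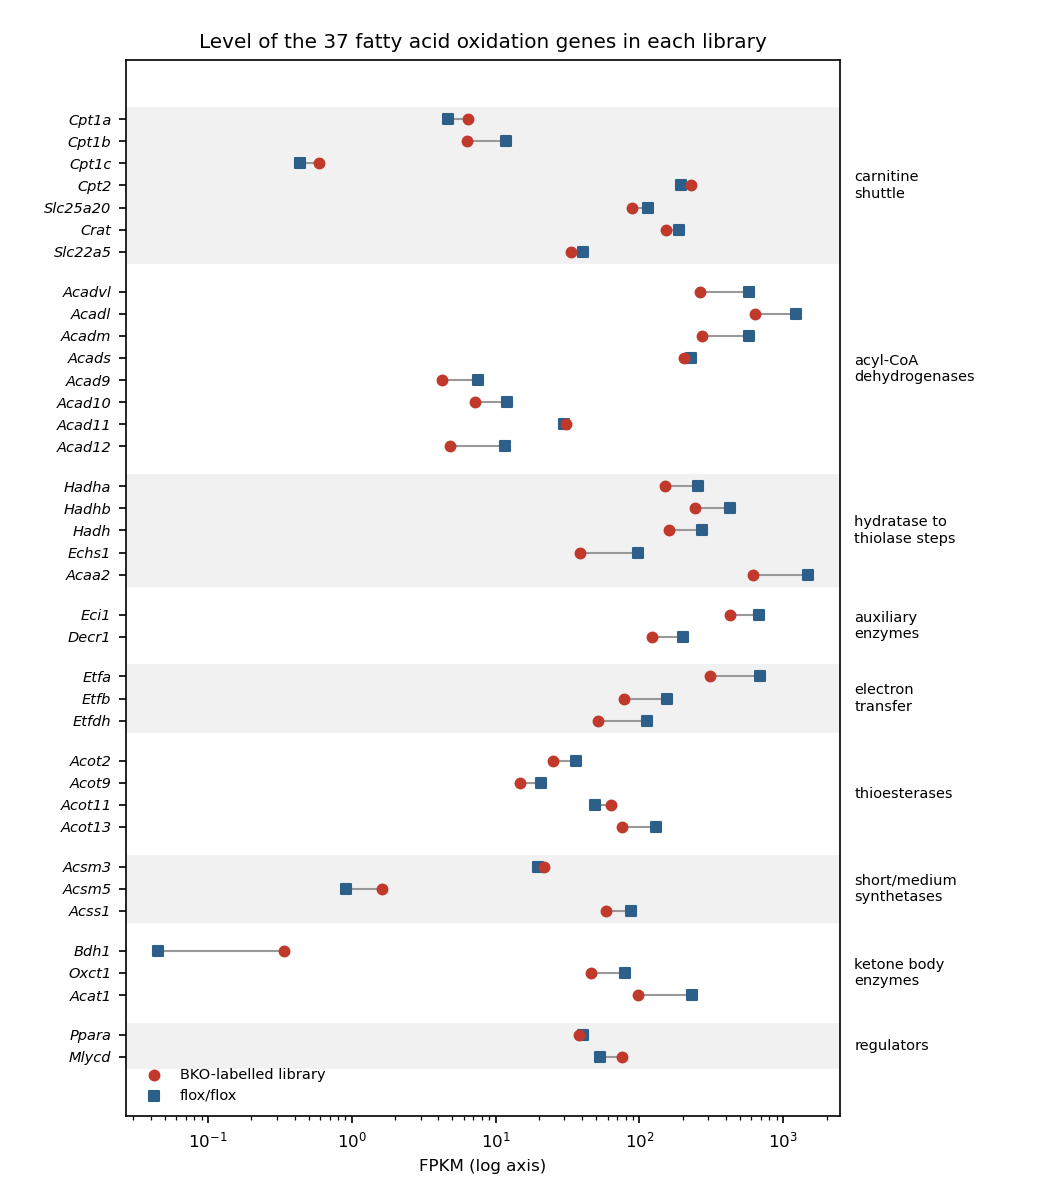
Level of each of the 37 genes in FPKM (log axis) in the BKO-labelled library (red circles) and the flox/flox library (blue squares), 1 pooled library each, grouped by role. Acaa2 was highest in the flox/flox library at 1475 FPKM and Acadl in the BKO-labelled library at 636 FPKM, and Cpt1c and Bdh1 lay below 1 FPKM in both.

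Together the 37 genes summed to 4648 FPKM in the BKO-labelled library and 8331 FPKM in the flox/flox library. Fragments could be worked out exactly for 35 of the 37 genes, all but *Cpt1a* and *Eci1*. These 35 include *Cpt1c* and *Bdh1* and so differ from the 35 genes compared. All genes with exact fragments held 18906282 fragments in the BKO-labelled library and 17516016 in the flox/flox library. Of these fragments, the 35 members with exact fragments took 1.51% (Wilson 95% interval 1.50 to 1.52) in the BKO-labelled library and 2.44% (2.43 to 2.44) in the flox/flox library. This share does not depend on how the authors scaled the libraries against each other. Values over 100 FPKM were held by 13 genes in the BKO-labelled library and 18 in the flox/flox library. The order changed little at the top, where 8 of the 10 most abundant members were the same in both libraries. The 5 most abundant members made up 48.6% of the summed FPKM in the BKO-labelled library and 55.8% in the flox/flox library.

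The counting intervals were narrow beside the differences. The interval of the ratio lay wholly below 1 for 28 of the 35 genes compared and wholly above 1 for 6, and it included 1 for *Acad11* alone. It lay wholly below 0.5 for the same 8 genes that were at least 2-fold lower, namely *Acadvl*, *Acadm*, *Acad12*, *Echs1*, *Acaa2*, *Etfa*, *Etfdh* and *Acat1*. Another 12 genes were 1.5- to 2-fold lower. *Acadm*, at 2.10-fold, lay just inside the 2-fold limit, and *Etfb*, at 1.995-fold, and *Acadl*, at 1.92-fold, lay just outside it. The counts by interval and the count of 12 genes have no share over all genes beside them. With many fragments an interval can leave out 1 even for a small difference, as for *Ppara* at 1.06-fold lower.

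**Figure D2:**
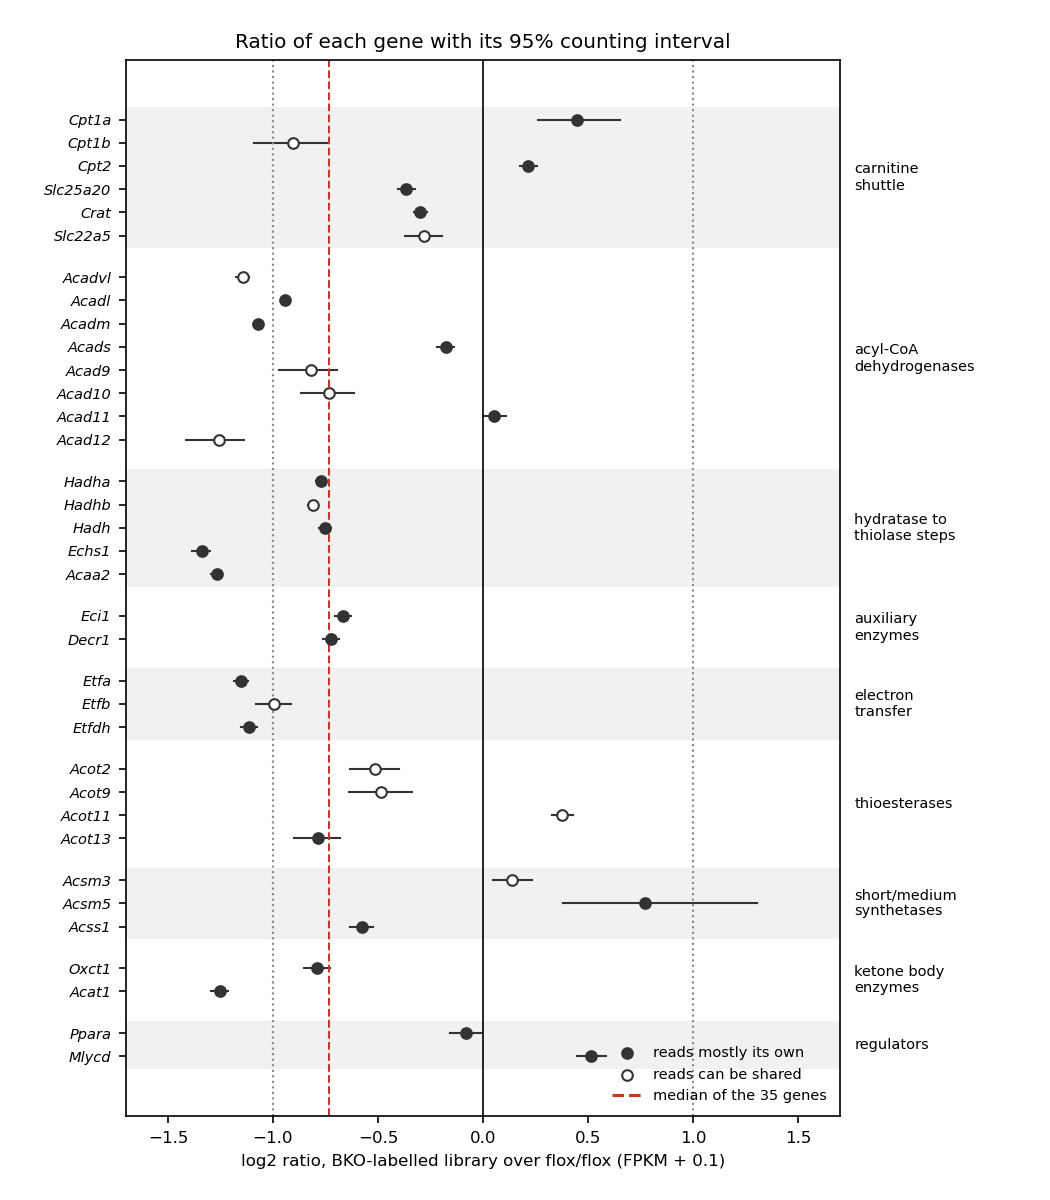
The log2 ratio of the BKO-labelled library over the flox/flox library (0.1 FPKM added to both) for the 35 genes compared, with the 95% counting interval as a bar. Open circles mark genes with at least 20% of their exon bases or transcript shared with another gene, dotted lines mark 2-fold and the dashed red line the median of −0.73; Crat, Slc22a5, Acads and Ppara lie left of 0 here but change sign in TPM.

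The carnitine shuttle had the mildest differences of the main steps. Of its 7 genes, 6 were compared, and none reached 2-fold in either direction. Their median log2 ratio was −0.29, but it was 0.04 in TPM. *Cpt1a*, the carnitine palmitoyltransferase 1 typical of liver, was at 6.45 FPKM in the BKO-labelled library and 4.70 FPKM in the flox/flox library, a 1.37-fold higher value (1.20 to 1.57). *Cpt1b*, the form typical of muscle and brown fat, stood the other way, at 6.30 FPKM in the BKO-labelled library, from 430 fragments, and 11.9 FPKM in the flox/flox library, from 700 fragments. It was 1.88-fold lower (1.67 to 2.13). The ratio of *Cpt1b* to *Cpt1a*, which does not depend on the scaling between libraries, was therefore 0.977 in the BKO-labelled library and 2.53 in the flox/flox library. The value of *Cpt1b* is uncertain, since 81.4% of its exon bases also belong to *Gm44502*, a gene on the same strand in GENCODE M21. Counting that leaves out reads shared with this gene would set *Cpt1b* too low. *Gm44502* has no deposited value, so whether the authors' counting included it is not known. *Cpt1c*, the brain form, was near the limit of detection at 0.591 FPKM (67 fragments) in the BKO-labelled library and 0.439 FPKM (43 fragments) in the flox/flox library.

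*Cpt2*, which remakes acyl-CoA inside the mitochondrion, had the highest FPKM of the shuttle genes in both libraries, at 227 FPKM in the BKO-labelled library and 195 FPKM in the flox/flox library. It was 1.16-fold higher (1.13 to 1.19) in the BKO-labelled library. *Slc25a20*, the carnitine-acylcarnitine carrier of the inner membrane that supplies it, was at 89.3 FPKM in the BKO-labelled library and 115 FPKM in the flox/flox library. Thus by FPKM *Cpt2* exceeded *Slc25a20* 2.54-fold (2.47 to 2.61) in the BKO-labelled library and 1.70-fold (1.65 to 1.75) in the flox/flox library. This order within a library depends on the exon length used. For *Slc25a20* it was 4844 bases, against 1783 in its longest coding transcript. For *Cpt2* it was 2391 bases, against 2372. *Crat*, which buffers acetyl-CoA as acetylcarnitine, had 153 FPKM in the BKO-labelled library and 188 FPKM in the flox/flox library. *Slc22a5*, which takes carnitine into the cell, had 33.5 FPKM in the BKO-labelled library and 40.8 FPKM in the flox/flox library. By the deposited FPKM *Crat* was 1.23-fold lower (1.20 to 1.26) and *Slc22a5* 1.22-fold lower (1.15 to 1.29), but both changed sign in TPM. The closest copy of *Slc22a5*, *Slc22a21*, covers 41.6% of its transcript but was below 1 FPKM in both libraries.

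The acyl-CoA dehydrogenases, which open each cycle of β-oxidation, were lower for 7 of 8 genes, with a median log2 ratio of −0.88. The enzymes for long and medium chains stood apart from the one for short chains. *Acadvl* (ENSMUSG00000018574, chromosome 11, 70010183 to 70015411, minus strand, GRCm38), which handles very long chains, was at 263 FPKM in the BKO-labelled library and 581 FPKM in the flox/flox library, 2.21-fold lower (2.17 to 2.26). *Acadl*, the long-chain enzyme and the most abundant of the group, was at 636 FPKM in the BKO-labelled library and 1220.4 FPKM in the flox/flox library, 1.92-fold lower (1.89 to 1.95). *Acadm* (ENSMUSG00000062908, chromosome 3, 153922357 to 153944632, minus strand), the medium-chain enzyme, was at 273 FPKM in the BKO-labelled library and 573 FPKM in the flox/flox library, 2.10-fold lower (2.07 to 2.14). *Acads*, the short-chain enzyme, had close values of 202 FPKM in the BKO-labelled library and 229 FPKM in the flox/flox library, 1.13-fold lower (1.10 to 1.16), which turned to higher in TPM. Within a library, *Acadl* exceeded *Acadm* 2.33-fold (2.29 to 2.37) in the BKO-labelled library and 2.13-fold (2.10 to 2.16) in the flox/flox library. *Acadvl* shares 42.9% of its exon bases with *Dvl2* on the opposite strand, and the treatment of strand is not given in the sources used here, but *Dvl2* was at only 1.91 FPKM in the BKO-labelled library and 2.43 FPKM in the flox/flox library.

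The 4 other members of the dehydrogenase family were far less abundant. *Acad9*, which is also an assembly factor of respiratory complex I, was at 4.25 FPKM in the BKO-labelled library and 7.56 FPKM in the flox/flox library, 1.78-fold lower (1.62 to 1.96). *Acad10* was at 7.17 FPKM in the BKO-labelled library and 12.0 FPKM in the flox/flox library. Its neighbour *Acad12* (ENSMUSG00000042647, chromosome 5, 121596775 to 121618938, minus strand) was at 4.82 FPKM in the BKO-labelled library and 11.7 FPKM in the flox/flox library, the largest difference of the family at 2.42-fold lower (2.20 to 2.67). These neighbours are close copies, which share 47.5% of the *Acad10* transcript at 95% identity or more, so that their reads cannot be fully told apart. *Acad11* was the exception, at 30.9 FPKM in the BKO-labelled library and 29.8 FPKM in the flox/flox library, a 1.04-fold ratio whose interval of 1.00 to 1.08 reached from just below 1.

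The hydratase, dehydrogenase and thiolase steps were lower throughout, for 5 of 5 genes, with a median log2 ratio of −0.81. *Echs1* (ENSMUSG00000025465, chromosome 7, 140105710 to 140116476, minus strand), the enoyl-CoA hydratase for short chains, had the lowest ratio of all 35 genes. It was at 38.3 FPKM in the BKO-labelled library, from 6425 fragments, and 97.1 FPKM in the flox/flox library, from 14062 fragments, 2.53-fold lower (2.46 to 2.61). It was the only member still at least 2-fold lower in TPM. *Hadh*, the 3-hydroxyacyl-CoA dehydrogenase for shorter chains, was at 160 FPKM in the BKO-labelled library and 271 FPKM in the flox/flox library, 1.69-fold lower (1.65 to 1.72).

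*Hadha* and *Hadhb* encode the subunits of the mitochondrial trifunctional protein, which carries out the last steps of the cycle for long chains. *Hadha* was at 150 FPKM in the BKO-labelled library and 256 FPKM in the flox/flox library, 1.71-fold lower (1.68 to 1.73). *Hadhb* was at 242 FPKM in the BKO-labelled library and 424 FPKM in the flox/flox library, 1.76-fold lower (1.73 to 1.78). The ratio of *Hadha* to *Hadhb* was 0.619 (0.609 to 0.629) in the BKO-labelled library and 0.602 (0.595 to 0.611) in the flox/flox library, so both subunits differed between the libraries by nearly the same factor. Most of the *Hadhb* transcript (69.7%) has a close copy in the processed pseudogene *Gm13910*, which was listed at 254 FPKM in the BKO-labelled library and 457 FPKM in the flox/flox library. Reads can have been split between this copy and *Hadhb*.

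These subunit genes stand head to head on chromosome 5. Their RefSeq starts, at 30154980 for *Hadha* and 30155253 for *Hadhb*, lie 273 bases apart, while in GENCODE M21 the starts are at 30155162 and 30155248, 86 bases apart. The promoter windows, each running 250 bases before to 50 bases after the RefSeq start, share 228 bases. The sequence is shown because a single stretch lies between the RefSeq starts of both genes. It is the RefSeq window of *Hadhb* on the plus strand of GRCm38.p6, chr5:30155003-30155302, with the bases that also lie in the *Hadha* window in capitals.

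Hadhb: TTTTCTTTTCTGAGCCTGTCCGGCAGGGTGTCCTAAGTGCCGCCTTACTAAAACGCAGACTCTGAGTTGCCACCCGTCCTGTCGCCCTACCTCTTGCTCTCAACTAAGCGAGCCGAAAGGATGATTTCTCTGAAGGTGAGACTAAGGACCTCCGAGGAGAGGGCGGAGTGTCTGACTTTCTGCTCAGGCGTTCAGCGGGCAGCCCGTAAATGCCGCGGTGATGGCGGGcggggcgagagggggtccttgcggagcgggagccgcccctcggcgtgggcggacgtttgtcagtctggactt

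At the last step, *Acaa2* (ENSMUSG00000036880, chromosome 18, 74779197 to 74806208, plus strand), the 3-ketoacyl-CoA thiolase, had the highest value of all members in the flox/flox library. It was at 612 FPKM in the BKO-labelled library, from 18771 fragments, and 1475 FPKM in the flox/flox library, from 39056 fragments, 2.41-fold lower (2.37 to 2.45). The auxiliary enzymes, which prepare unsaturated chains for the cycle, differed less. *Eci1*, an enoyl-CoA isomerase, was at 429 FPKM in the BKO-labelled library and 681 FPKM in the flox/flox library, 1.59-fold lower (1.55 to 1.63). *Decr1*, the 2,4-dienoyl-CoA reductase, was at 122 FPKM in the BKO-labelled library and 202 FPKM in the flox/flox library, 1.65-fold lower (1.61 to 1.70).

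Electron transfer from β-oxidation had the lowest median of the roles with 3 or more genes, at −1.11. *Etfa* (ENSMUSG00000032314, chromosome 9, 55454508 to 55512243, minus strand), which encodes the α subunit of the electron transfer flavoprotein, was at 310 FPKM in the BKO-labelled library and 690 FPKM in the flox/flox library, 2.22-fold lower (2.17 to 2.27). *Etfb*, the β subunit, was at 78.1 FPKM in the BKO-labelled library and 156 FPKM in the flox/flox library, 1.995-fold lower (1.88 to 2.11). *Etfdh* (ENSMUSG00000027809, chromosome 3, 79603788 to 79629500, minus strand), the dehydrogenase that hands the electrons to ubiquinone, was at 51.7 FPKM in the BKO-labelled library and 112 FPKM in the flox/flox library, 2.16-fold lower (2.11 to 2.22). By the deposited FPKM all 3 genes of the chain were thus close to 2-fold lower. In TPM the log2 ratios were −0.82 for *Etfa*, −0.66 for *Etfb* and −0.78 for *Etfdh*. The ratio of *Etfa* to *Etfb* was 3.97 (3.78 to 4.18) in the BKO-labelled library and 4.43 (4.26 to 4.59) in the flox/flox library. *Etfb* is the less certain of the pair, because *Gm45233* and *Mir7051* on the same strand cover 58.2% of its exon bases.

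Taken as a block, the 18 enzymes from the acyl-CoA dehydrogenases to electron transfer had a median log2 ratio of −0.88. Of them, 7 were at least 2-fold lower, against 5.91% of all genes compared, and 17 were below 0, against 48.3%. The other 17 members compared had a median of −0.30, with 1 at least 2-fold lower and 11 below 0. In TPM, *Echs1* alone in either block was still at least 2-fold lower. The summed FPKM of the 18 enzymes was 3614 in the BKO-labelled library and 7027 in the flox/flox library. That of the other members, including both that were not compared, was 1034 in the BKO-labelled library and 1304 in the flox/flox library. No test between these blocks was possible.

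Thioesterases, which cut acyl-CoA back to free fatty acid and CoA, were below 0 for 3 of 4 genes, with a median log2 ratio of −0.50. *Acot13* was at 75.2 FPKM in the BKO-labelled library and 130 FPKM in the flox/flox library, 1.73-fold lower (1.60 to 1.86). *Acot2* was at 25.2 FPKM in the BKO-labelled library and 36.0 FPKM in the flox/flox library. *Acot9* was at 14.7 FPKM in the BKO-labelled library and 20.6 FPKM in the flox/flox library. Both have close copies, *Acot1* over 58.0% of the *Acot2* transcript and *Acot10* over 84.9% of the *Acot9* transcript. *Acot11*, a thioesterase known in mice for its induction by cold in brown fat, went the other way, at 63.8 FPKM in the BKO-labelled library and 49.1 FPKM in the flox/flox library, 1.30-fold higher (1.26 to 1.35).

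The short- and medium-chain acyl-CoA synthetases did not share a direction. *Acss1*, which makes acetyl-CoA from acetate in mitochondria, was the most abundant, at 58.1 FPKM in the BKO-labelled library and 86.8 FPKM in the flox/flox library, 1.49-fold lower (1.44 to 1.55). *Acsm3* was at 21.8 FPKM in the BKO-labelled library and 19.8 FPKM in the flox/flox library. For *Acsm3*, 39.7% of the exon bases lie across *Eri2* on the opposite strand. *Acsm5* had the highest ratio of the 35 genes but few reads, with 1.61 FPKM (124 fragments) in the BKO-labelled library and 0.903 FPKM (60 fragments) in the flox/flox library, 1.78-fold higher (1.30 to 2.47).

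Ketone body enzymes that use ketones as fuel were lower. *Oxct1*, which activates acetoacetate, was at 45.8 FPKM in the BKO-labelled library and 79.3 FPKM in the flox/flox library, 1.73-fold lower (1.66 to 1.81). *Acat1* (ENSMUSG00000032047, chromosome 9, 53580522 to 53610382, minus strand), the mitochondrial acetoacetyl-CoA thiolase, which also serves isoleucine breakdown, was at 97.5 FPKM in the BKO-labelled library and 232 FPKM in the flox/flox library, 2.38-fold lower (2.32 to 2.45). *Bdh1*, which interconverts 3-hydroxybutyrate and acetoacetate, was barely detected. It had 26 fragments (0.338 FPKM) in the BKO-labelled library and 3 fragments (0.0452 FPKM) in the flox/flox library, a ratio of 7.48 with a counting interval of 2.29 to 38.6, and it did not pass the filter on low values.

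Neither of the regulators among the members, *Ppara* and *Mlycd*, was lower to the degree of most oxidation enzymes. The wider list of nuclear receptor regulators, given below, had a median log2 ratio of −0.50, or −0.16 in TPM. *Ppara*, the nuclear receptor that drives many of these genes in liver, was at 38.1 FPKM in the BKO-labelled library and 40.3 FPKM in the flox/flox library, 1.06-fold lower (1.00 to 1.11), and its sign turned when each library was scaled to its own fragment total and in TPM. *Mlycd*, which breaks down malonyl-CoA, the inhibitor of carnitine palmitoyltransferase 1, was at 75.7 FPKM in the BKO-labelled library and 53.0 FPKM in the flox/flox library, 1.43-fold higher (1.36 to 1.50).

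Many promoters of oxidation genes are known to bind nuclear receptors such as PPARα and ERRα, whose core element is AGGTCA. A RefSeq promoter window was found for 30 of the 37 genes. The letters AGGTCA stood on either strand in 5 of these 30 genes (16.7%), against 18.1% of 27025 genes with such a window. The extended element TCAAGGTCA was in none of the 30, against 0.466% of all genes, and a direct repeat of AGGTCA with any 1 base between its copies was in none of the 30, against 0.0481% of all genes. The copies inside the longer elements are counted as AGGTCA too. Exact matches to AGGTCA were therefore about as frequent in these genes as elsewhere, which says nothing of whether a receptor binds. The longer elements were too rare among all genes for their absence from 30 genes to show a difference.

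The 5 genes with a match were *Acadvl*, *Echs1*, *Acadm*, *Cpt1a* and *Cpt1c*. In *Acadm* and *Cpt1c* it began 249 and 146 bases before the RefSeq start, so the 5 matches had no common position. In *Acadvl*, *Echs1* and *Cpt1a* it began 87, 83 and 94 bases before the RefSeq start, on the strand of the gene in *Acadvl* and *Echs1* and on the opposite strand, where it reads TGACCT, in *Cpt1a*. The GENCODE M21 start lies 17 bases from the RefSeq one in *Acadvl* and 55 bases in *Echs1*, but 967 bases upstream of it in *Cpt1a*, so that by GENCODE the *Cpt1a* match falls within the gene. These windows are shown because they set a pair of genes at least 2-fold lower in the BKO-labelled library beside a gene that was higher there, with the same letters at a like distance from the RefSeq start. They are given 5′ to 3′ on the strand of the gene, GRCm38.p6, with the match in capitals, for *Acadvl* at chr11:70015379-70015678 (minus strand), *Echs1* at chr7:140116372-140116671 (minus strand) and *Cpt1a* at chr19:3323051-3323350 (plus strand).

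Acadvl: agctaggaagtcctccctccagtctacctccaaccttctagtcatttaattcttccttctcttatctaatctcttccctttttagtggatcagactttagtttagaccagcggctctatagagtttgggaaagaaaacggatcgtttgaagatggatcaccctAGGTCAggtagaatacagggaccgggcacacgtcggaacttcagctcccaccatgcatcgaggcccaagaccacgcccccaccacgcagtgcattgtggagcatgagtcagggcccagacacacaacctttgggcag

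Echs1: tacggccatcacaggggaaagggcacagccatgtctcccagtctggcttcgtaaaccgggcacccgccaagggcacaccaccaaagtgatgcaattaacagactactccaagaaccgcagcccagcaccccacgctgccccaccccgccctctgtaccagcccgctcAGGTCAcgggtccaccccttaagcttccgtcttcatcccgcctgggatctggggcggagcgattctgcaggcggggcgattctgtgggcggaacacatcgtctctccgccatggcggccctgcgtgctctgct

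Cpt1a: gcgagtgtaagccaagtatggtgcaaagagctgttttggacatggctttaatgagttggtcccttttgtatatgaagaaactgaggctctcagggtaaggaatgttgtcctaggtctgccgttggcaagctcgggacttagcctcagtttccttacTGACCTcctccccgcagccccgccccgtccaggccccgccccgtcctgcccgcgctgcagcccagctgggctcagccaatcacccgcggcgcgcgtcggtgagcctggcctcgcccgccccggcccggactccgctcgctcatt

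The neighbouring pathways stood closer to all genes. Of 57 genes in 8 further lists, 48 were compared, with a median log2 ratio of −0.12. Of these 48, 3 were at least 2-fold lower, against 5.91% of all genes, and 1 at least 2-fold higher, against 11%. Peroxisomal oxidation, which shortens very long chains with its own set of enzymes, had a median of −0.04 over 15 genes, which was 0.05 by own fragment totals and 0.29 in TPM. None of the 15 was at least 2-fold lower. *Abcd2*, a peroxisomal transporter of very long-chain acyl-CoA, was at 21.9 FPKM in the BKO-labelled library and 7.52 FPKM in the flox/flox library, 2.91-fold higher (2.67 to 3.16). All 16 genes of this list, including 1 that did not pass the filter, summed to 943 FPKM in the BKO-labelled library and 914 FPKM in the flox/flox library.

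Among the 7 long-chain acyl-CoA synthetases compared, the median was 0.10. *Slc27a2*, a very long-chain synthetase and fatty acid transporter, was at 27.9 FPKM in the BKO-labelled library and 113 FPKM in the flox/flox library, 4.05-fold lower (3.86 to 4.26), the lowest ratio of any gene in these lists. The other ETF-linked dehydrogenases, which serve amino acid and choline breakdown and feed the same flavoprotein, had a median of −0.32 over 5 genes, 0.01 in TPM, and none was past 2-fold. Other thioesterases had a median of −0.07 over 5 genes, which was 0.03 by own fragment totals and 0.26 in TPM. *Acot1*, named as the copy of *Acot2*, was at 1.70 FPKM in the BKO-labelled library and 4.58 FPKM in the flox/flox library, 2.69-fold lower (2.19 to 3.32). Ketogenesis had a median of −0.03 over 3 genes, 0.07 by own fragment totals and 0.30 in TPM, and carnitine synthesis had −0.39 over 2 genes. The genes that make malonyl-CoA had a median of 0.27 over 2 genes.

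The nuclear receptor regulators of oxidation had a median log2 ratio of −0.50 over 9 genes, and 1 was past 2-fold. This was *Ppargc1a*, the coactivator of mitochondrial biogenesis, at 5.27 FPKM in the BKO-labelled library and 12.9 FPKM in the flox/flox library, 2.45-fold lower (2.23 to 2.68). It is also among the 8 brown adipocyte markers, which had a median of −0.83 and summed to 3962 FPKM in the BKO-labelled library and 8727 FPKM in the flox/flox library. These markers did not all go one way, for 3 were at least 2-fold lower and 1 at least 2-fold higher, with log2 ratios between −2.56 and 2.49. The one that was higher, *Elovl3*, a fatty acid elongase, was at 119 FPKM in the BKO-labelled library and 21.1 FPKM in the flox/flox library, 5.63-fold higher (4.81 to 6.61). The 7 general adipocyte markers had a median of 0.09 and were as mixed, with 3 below 0, 4 above 0 and log2 ratios between −0.55 and 3.23. *Lep*, which encodes leptin, was at 17.4 FPKM in the BKO-labelled library and 1.76 FPKM in the flox/flox library, 9.88-fold higher (8.07 to 12.2), while *Cd36*, a fatty acid transporter, was at 460 FPKM in the BKO-labelled library and 675 FPKM in the flox/flox library. The part of any of these cells in the ratios of the oxidation genes was not tested.

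**Figure D3:**
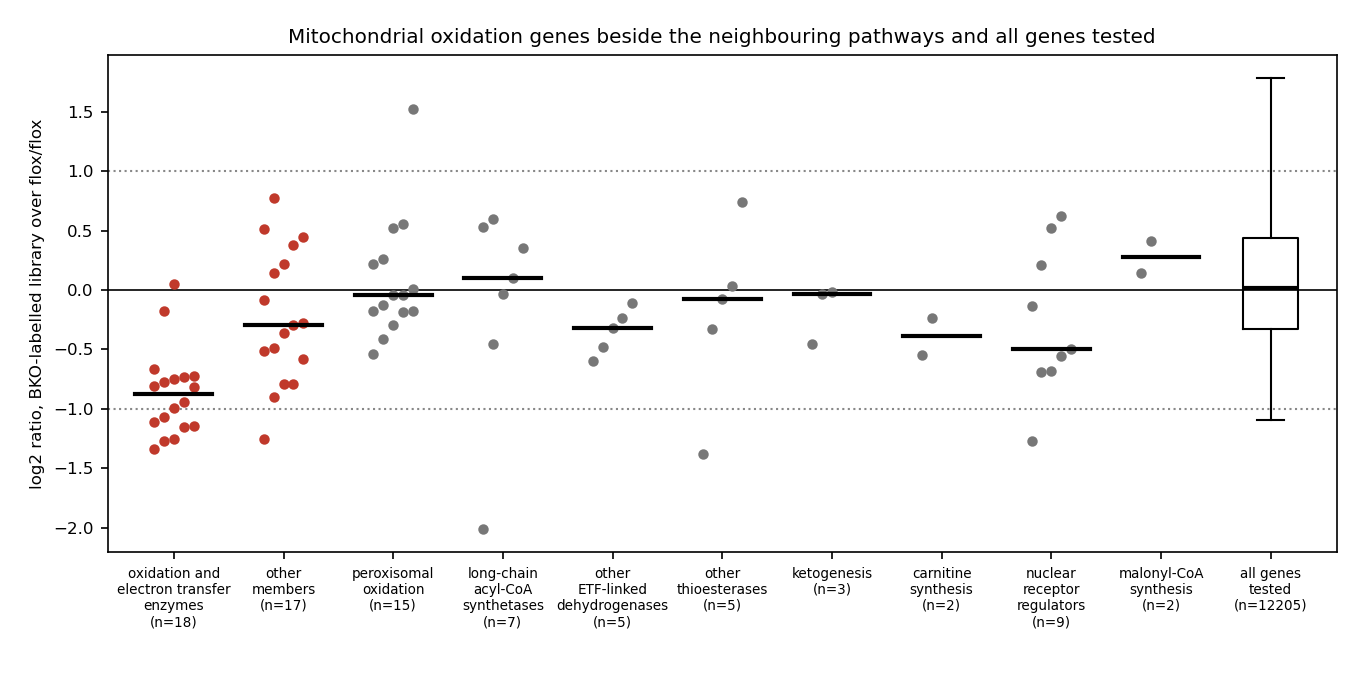
The log2 ratio of the BKO-labelled library over the flox/flox library for the 18 oxidation and electron transfer enzymes and the other 17 members (red), the genes of 8 neighbouring lists (grey) and all 12205 genes compared (box from the first to the third quartile, whiskers at the 5th and 95th percentiles); short black lines are medians. The oxidation and electron transfer enzymes lie mostly between −0.67 and −1.34, and all lists shift upward in TPM, where peroxisomal oxidation, other thioesterases, ketogenesis and other ETF-linked dehydrogenases have medians above 0.

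The deposited scaling decided the sign of few of the 35 genes. Under the deposited scaling, own fragment totals, TPM, median centring and rescaling without the mitochondrial genome genes, 24 of the 35 genes were below 0 throughout and 7 were above 0 throughout. Those above 0 throughout were *Cpt1a*, *Cpt2*, *Acad11*, *Acot11*, *Acsm3*, *Acsm5* and *Mlycd*. The other 4, *Crat*, *Slc22a5*, *Acads* and *Ppara*, changed sign. Over all genes compared, 48.3% were below 0 by the deposited scaling and 24.9% in TPM.

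**Figure D4:**
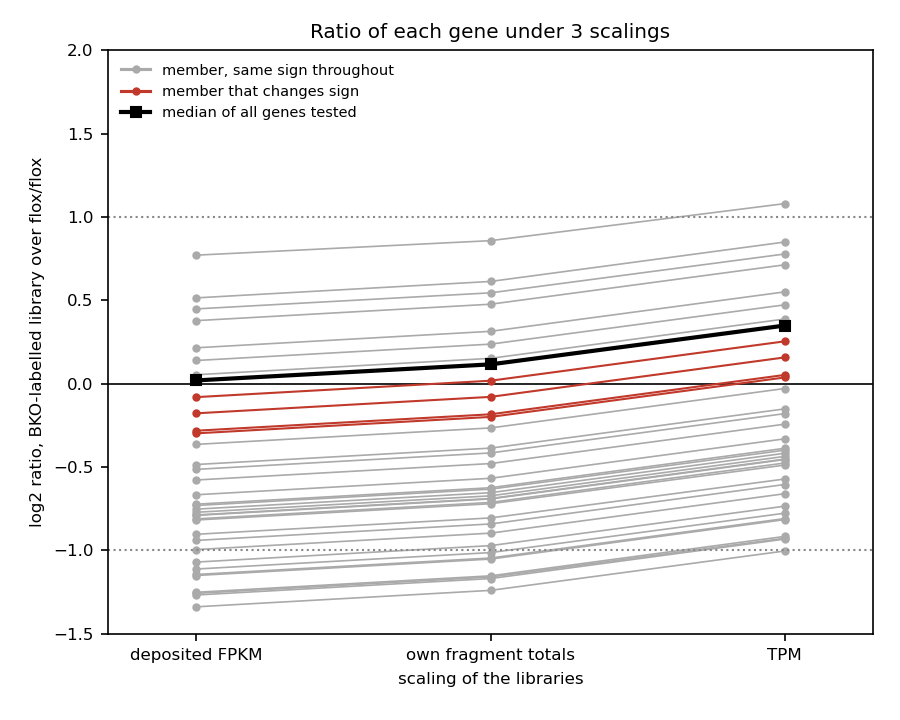
The log2 ratio of each of the 35 genes in the BKO-labelled library over the flox/flox library under the deposited FPKM, each library scaled to its own fragment total, and TPM, with the median of all genes compared in black. Red lines are Crat, Slc22a5, Acads and Ppara, which change sign; all lines rise together with the median of all genes, by 0.10 and 0.33 from the deposited scaling.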

How the data were processed

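RNA sequencing was performed on 2 libraries of mouse iBAT, 1 per genotype and each pooled from 4 mice. The authors mapped paired-end reads to GRCm38 with TopHat2, assigned them to genes with HTSeq (0.6.1 in the submitters' processing notes) and deposited the result as FPKM. How FPKM was computed and how strand and multi-gene reads were treated are not given in the sources used here. A counter that drops ambiguous reads lowers genes with overlapping neighbours or close copies.

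Gene names and positions came from GENCODE M21 (GRCm38), in which 52489 of 52768 identifiers were found, except that promoter windows and their start sites came from RefSeq (GRCm38.p6). The product of FPKM and exon length was a whole number of steps of fixed size in each library, within 0.001 fragments plus a relative 1e-08, which gave the fragments of 92.6% of the genes compared. For *Cpt1a* and *Eci1* several exon lengths did so, and the fewest possible fragments were used. By the step sizes, the deposited scaling corresponds to 97.7% of the fragment total of the BKO-labelled library and 91.3% of that of the flox/flox library. Totals include genes of undetermined length, taken at the fitting length nearest the annotated one. Annotated exon lengths join the exons of all transcripts of a gene. The order and the FPKM ratios of different genes within a library depend on this choice, which the counting intervals leave out.

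The measure was the log2 ratio, BKO-labelled over flox/flox, after adding 0.1 FPKM, which understates changes of low genes. It was taken for the 12205 genes that averaged 1 FPKM or more. A gene was called at 2-fold, with no test. Folds are plain FPKM ratios with exact (Clopper-Pearson) 95% intervals and shares have Wilson intervals. Both kinds hold counting error alone, as PCR copies are not separate molecules. Shared reads were sought by exon overlap and by BLAST 2.17.0 (95% identity over 100 bases), and 12 members shared at least 20%. The scripts (Python 3.11.15, pandas 2.3.3, scipy 1.17.1) were tested on simulated data.

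Alternatives were pseudocounts of 1 and 0.01 FPKM, no filter, a filter of 5 FPKM, TPM, median centring, own fragment totals, rescaling without mitochondrial genome genes, protein-coding genes alone as the background, and medians without the members measured by qPCR in the study (*Cpt1b*, *Cpt2*, *Ppara*) or without members that share reads. All members were named. Other genes could be named where they were *Mettl3*, *Ucp1*, *Ppargc1a*, markers, genes sharing reads with a member, or past 2-fold with a mean of at least 5 FPKM. The members, the lists and these rules were chosen with earlier results of these data known.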

Additional observations from a re-analysis of the deposited data

How the results depend on the processing

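With pseudocounts of 1 and 0.01 FPKM, a filter at a mean of 5 FPKM, median centring, own fragment totals and rescaling without mitochondrial genome genes, 7 to 9 members were at least 2-fold lower, none was at least 2-fold higher and 27 or 28 were below 0. Without a filter, 1 member was at least 2-fold higher (*Bdh1*, on 3 fragments in the flox/flox library). TPM left 1 member at least 2-fold lower, against 3.33% of all genes, and 1 higher, with no share over all genes beside it. The medians in TPM were −0.40 over the members and 0.35 over all genes. The median over the members was −0.74 without *Cpt1b*, *Cpt2* and *Ppara*, and −0.72 without those that share reads. No paired analysis was possible because each genotype had 1 library, and no replicate could be left out.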

Other observations

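The longest coding transcripts of the 35 members compared held the letters GGACT, the core of the motif at which N6-methyladenosine is written, at a median of 1.04 per kilobase (quartiles 0.689 and 1.68). The 10615 other protein-coding genes compared held them at a median of 1.05 per kilobase (quartiles 0.644 and 1.54). This count was chosen after the values had been seen. It describes the sequence alone, and no methylation was measured here.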
